A study of Mus musculus with 8 samples.

Results

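The clustered histone genes are the protein-coding genes whose symbols in the deposited count table start with Hist1h, Hist2h, Hist3h or Hist4h. They numbered 67 of the 55450 genes in the table. The symbols place 54 of them in the large cluster on chromosome 13, 10 in the cluster on chromosome 3, 2 on chromosome 11 and 1 on chromosome 6. They encode 5 classes of protein, with 6 genes for H1, 18 for H2A, 18 for H2B, 12 for H3 and 13 for H4. A further 3 genes with such symbols are pseudogenes and were left out. Their transcripts were measured by RNA sequencing in 8 libraries of mouse neutrophils sorted on CD71, the transferrin receptor, a surface protein that takes up iron. The culture CD71- and culture CD71+ groups were neutrophils generated in vitro from naive bone marrow. The tumour CD71- and tumour CD71+ groups were neutrophils taken from brain tumours of SB28, a mouse glioma line. Each group held 2 libraries. The sources used here give no strain, age, sex or treatment, and do not say whether animals were pooled. Total RNA was depleted of ribosomal RNA rather than selected for poly(A) tails, so transcripts without a tail could be counted.

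Histones package DNA. Pairs of H2A, H2B, H3 and H4 form the core of each nucleosome, and the linker histone H1 binds the DNA between cores. Most genes of the clusters are copied during S phase, the stage of the cell cycle in which DNA is replicated, and their mRNAs end in a short stem-loop in place of a poly(A) tail. Stem-loop-binding protein holds that end, and the mRNAs are destroyed when replication stops. Some clustered genes, among them Hist1h1c, Hist1h2bc and Hist2h2be, are also made as polyadenylated mRNA in cells that no longer divide. Mature neutrophils are such cells, and replication ends earlier in their development in the bone marrow.

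The stem-loop was looked for in the gene models, since mRNAs that end in it in place of a poly(A) tail would be lost in a poly(A) selection. A stem-loop in a model does not show where a transcript ends. The pattern was GG, 3 pyrimidines, T, any 4 bases, A, 3 purines and CC, a run of 16 bases within 100 bases after the stop codon. Of the 67 genes, 46 held it. Among the 31 whose models run at least 100 bases past the stop codon, 27 did. Of all 47354 protein-coding transcript models of that reach, 67 did, or 0.141%. The stem-loops below belong to the 3 linker histone genes with the highest counts, to Hist1h2bg and Hist1h4i, whose CD71 calls passed under every alternative tried, and to Hist1h3d and Hist4h4 as other core histone genes that passed a CD71 comparison. Capitals mark the 16 bases of the pattern, with 5 bases on either side, read on the strand of the gene.
Hist1h1c: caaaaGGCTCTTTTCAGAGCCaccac
Hist1h1d: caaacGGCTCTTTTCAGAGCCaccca
Hist1h1e: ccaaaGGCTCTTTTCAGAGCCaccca
Hist1h2bg: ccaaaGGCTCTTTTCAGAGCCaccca
Hist1h3d: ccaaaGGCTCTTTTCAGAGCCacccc
Hist1h4i: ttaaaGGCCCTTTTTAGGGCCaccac
Hist4h4: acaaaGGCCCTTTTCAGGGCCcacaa
The 2 H4 genes shown pair GGCCC with GGGCC, and the others shown pair GGCTC with GAGCC. The models of Hist1h2bc and Hist2h2be run past 100 bases after the stop codon and did not hold the pattern there. The models of Hist1h1a and Hist1h1b stop too close to the stop codon to be read. Hist1h1c, at chr13:23738808-23740367 on the plus strand of GRCm38, has both the stem-loop and 840 further bases of annotated transcript after it.

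For 61 of the 67 genes RefSeq (GRCm38.p6) gave a promoter on the same strand with a start within 2000 bases of the gene model's start, and 250 bases before each start were searched on both strands. CCAAT was present in 82.0% of these and in 34.5% of all 27025 promoters in the table. Every H1, H2A and H2B promoter matched held it, against 3 of 12 for H4. TATAAA was present in 47.5%, against 13.0% of all promoters. The octamer ATTTGCAT was found in 7 of 17 H2A and 6 of 16 H2B promoters, in none of the other classes, and in 1.61% of all promoters. The H1 box AAACACA was in 5 of 6 H1 promoters and in 6.22% of all promoters. These are matches of letters, which do not show that a factor binds. The 150 bases before the start of 4 genes are printed because each had a CD71 call, described further on, that passed under every alternative tried. Capitals mark matches to the 4 motifs on either strand, and the strand given is that of the gene.
Hist1h1a, chr13:23763518-23763667, plus strand, GRCm38.p6: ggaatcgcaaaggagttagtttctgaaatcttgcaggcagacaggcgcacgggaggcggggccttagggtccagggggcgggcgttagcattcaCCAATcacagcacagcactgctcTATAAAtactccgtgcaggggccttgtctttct
Hist1h1e, chr13:23622559-23622708, minus strand, GRCm38.p6: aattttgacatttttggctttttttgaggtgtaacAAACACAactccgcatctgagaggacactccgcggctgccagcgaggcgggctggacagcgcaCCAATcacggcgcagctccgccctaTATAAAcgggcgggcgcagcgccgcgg
Hist1h2bg, chr13:23571250-23571399, plus strand, GRCm38.p6: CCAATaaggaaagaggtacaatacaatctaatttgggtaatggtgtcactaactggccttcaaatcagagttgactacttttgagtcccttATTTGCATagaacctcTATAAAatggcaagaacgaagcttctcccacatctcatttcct
Hist1h4i, chr13:22041363-22041512, minus strand, GRCm38.p6: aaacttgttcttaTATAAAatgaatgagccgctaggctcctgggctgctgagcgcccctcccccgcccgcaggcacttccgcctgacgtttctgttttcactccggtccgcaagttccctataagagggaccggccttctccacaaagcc
Within these 150 bases, Hist1h1a and Hist1h1e each held CCAAT close upstream of TATAAA. Hist1h2bg also held the octamer, and Hist1h4i held neither CCAAT nor the octamer.

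Total counts ran from 9598959 to 22615813 per library, and levels are given in CPM, counts divided by a library size that was scaled by TMM factors, which assume that most genes do not change. A count of 0 in a library allows up to 3 counts, which is 0.0915 to 0.419 CPM and covers counting error only. All 22 markers of mature neutrophils were detected in every group. Their summed level was 10335 to 11199 CPM in culture CD71-, 4754 to 5964 in culture CD71+, 41161 to 42971 in tumour CD71- and 19365 to 20688 in tumour CD71+. With CD71, 18 of the 22 fell in the tumour and 11 in culture, and 0 rose in either. From culture to tumour 15 rose and 3 fell in CD71- cells, and 16 and 3 in CD71+ cells. Of 8 early neutrophil markers tested, 1 rose with CD71 and 0 fell in the tumour and in culture alike. From culture to tumour 3 of them rose and 3 fell in CD71- cells and in CD71+ cells. Of 15 macrophage markers, 14 rose in tumour CD71+ over tumour CD71-, from a sum of 818 to 851 CPM to a sum of 3734 to 4077 CPM, and none was at 0 in tumour CD71- or tumour CD71+. All 9 microglia markers also rose there, from 114 to 149 CPM to 1110 to 1585 CPM. The tested dendritic (4 of 6), lymphocyte (4 of 4) and erythroid (1 of 2) markers rose there too, with sums of 98.2 to 105 and 326 to 411 CPM, of 3.63 to 4.16 and 14.5 to 24.2 CPM, and of 0.419 to 0.554 and 4.05 to 5.77 CPM. Of the 10 erythroid markers listed, 5 were at 0 in tumour CD71- and 5 in tumour CD71+. Of 7 glioma and neural markers tested, 4 rose in tumour CD71+ and 0 fell, with overlapping sums of 134 to 142 and 128 to 223 CPM. Of 7 endothelial and stromal markers tested, 3 rose and 1 fell, with sums of 157 to 195 and 151 to 216 CPM. In culture 10 of the 15 macrophage markers rose in CD71+ and 1 fell, and the sums were 799.7 to 848 and 1064 to 1227 CPM. Tested microglia (4 of 9) and dendritic (3 of 6) markers rose there too and 0 fell. Their sums were 71.7 to 73.6 and 131 to 162 CPM, and 244 to 344 and 635 to 783 CPM. Of 7 endothelial and stromal markers 1 rose and 0 fell, and of 5 eosinophil, basophil and mast cell markers 0 rose and 2 fell. No lymphocyte, erythroid or glioma and neural marker passed. The part of these other cells in the histone results was not tested. Mitochondrial genes took 7.09% and 12% of counts in the culture CD71- libraries, against 1.45% and 2.17% in culture CD71+ and 0.202% to 1.04% in the tumour. In a bulk library, fewer cells of a type and less RNA per cell cannot be told apart. No label ties a library to its own animal or culture. The p-values therefore describe only how the 8 libraries vary, part of which may be technical.

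Clustered histone genes took 0.0158% to 0.146% of all counts. Their summed level was 762 and 1271 CPM in culture CD71-, 397 and 411 in culture CD71+, 284 and 245 in tumour CD71-, and 257 and 207 in tumour CD71+. On this scale both culture CD71- libraries were above the other 6, culture CD71+ was above both tumour groups, and the tumour groups overlapped. As mean ± SD of 2 libraries these sums were 1017 ± 359.8, 404 ± 9.78, 264 ± 27.8 and 232 ± 35.3 CPM. As a share of all counts, without TMM factors, the culture groups kept their places. The tumour groups did not overlap there, with 0.0171% and 0.0158% in CD71- and 0.0228% and 0.0197% in CD71+. The order of the tumour groups thus depended on the scaling. An exact two-sided permutation test of 2 libraries against 2 cannot go below p = 0.333, so the sums were not tested. Without H1 the sums of the other classes were 184 and 278, 105 and 121, 109 and 90.8, and 92.8 and 78.3 CPM in the same order, so that culture CD71- again lay above the rest. H1 made up 70.5% to 78.1% of the histone counts in culture and 61.7% to 63.9% in the tumour. H2A made up 1.65% to 3.32% in culture and 5.28% to 7.96% in the tumour.

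**Figure D1:**
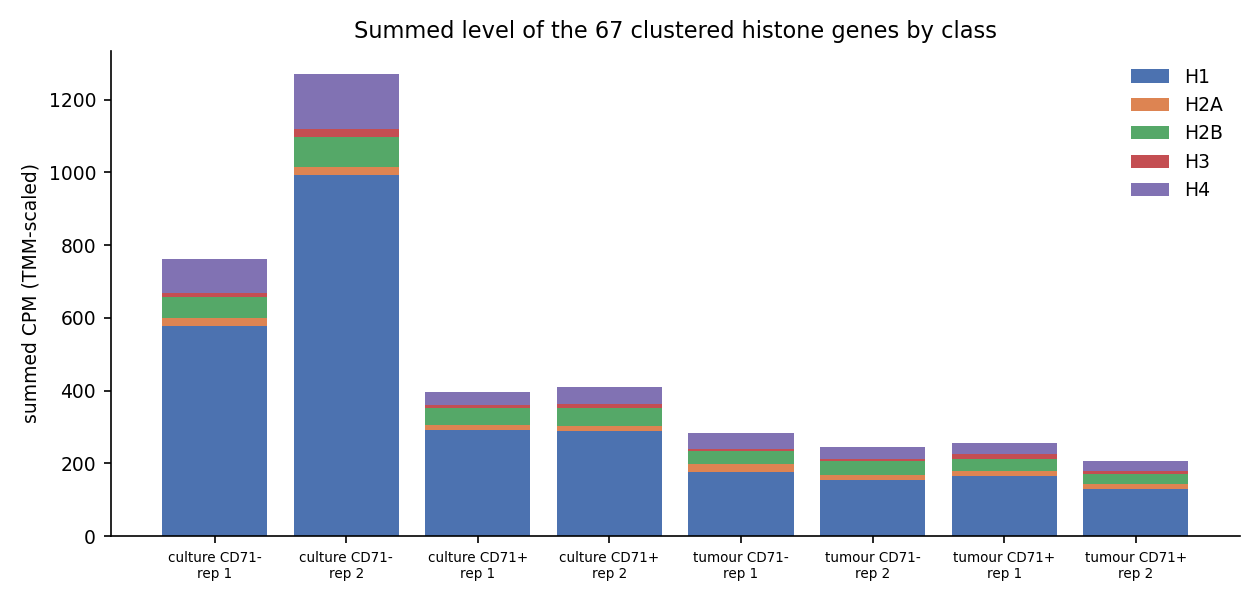
Summed CPM of the 67 clustered histone genes in each of the 8 libraries, stacked by class (H1, H2A, H2B, H3, H4). Culture CD71- reaches 762 and 1271 CPM, the tumour libraries stay between 207 and 284 CPM, and H1 is the tallest segment in every library.

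The level was concentrated in few genes. Hist1h1c, Hist1h1d and Hist1h1e, all linker histone genes, held 69.4% of the summed mean CPM. Only 8 genes averaged at least 10 CPM over the 8 libraries and 25 averaged at least 1 CPM. There were 28 with a count in every library and 4 (Hist1h2aa, Hist1h2ba, Hist2h2aa1 and Hist2h3c1) with none in any. Levels were also taken per kilobase of annotated exon, which depends on how far each gene model runs and how much of it other genes share. On this scale Hist1h1c led in every group, with means of 279 CPM per kb in culture CD71-, 95.8 in culture CD71+, 90.2 in tumour CD71- and 66.4 in tumour CD71+. The order below it differed between groups. In culture CD71- it was followed by Hist1h1e (72) and Hist1h4i (66.4), and in culture CD71+ by Hist1h1e (23.5) and Hist1h1b (13.4). In tumour CD71- it was followed by Hist1h4i (21.8) and Hist2h2aa2 (13.6), and in tumour CD71+ by Hist1h4i (14.5) and Hist1h1e (9.60). Hist1h1d, high in CPM, has a model of 7425 exonic bases and was among the first 5 per kilobase in no group. That model runs 4884 bases past the stem-loop, so its rank depends on the model length used. A filter on low counts left 35 of the 67 genes to test, 5 of H1, 5 of H2A, 11 of H2B, 5 of H3 and 9 of H4, and 32 were not tested.

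Near-identical copies limit what can be counted. Of the 50-base stretches of each gene's transcripts, the median share found at no other annotated locus was 71.1% in the tested genes and 40.8% in the genes left out. For 30 genes, 10 of them tested, the share was under 50%. The sources used here do not say how reads with several matches were counted. Hist2h2aa2 had no unique stretch at all. All 18 H2A genes overlap an annotated gene on the other strand, and Hist1h1e and Hist1h2be share exon sequence on 1 strand, which leaves the values of both uncertain.

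**Figure D2:**
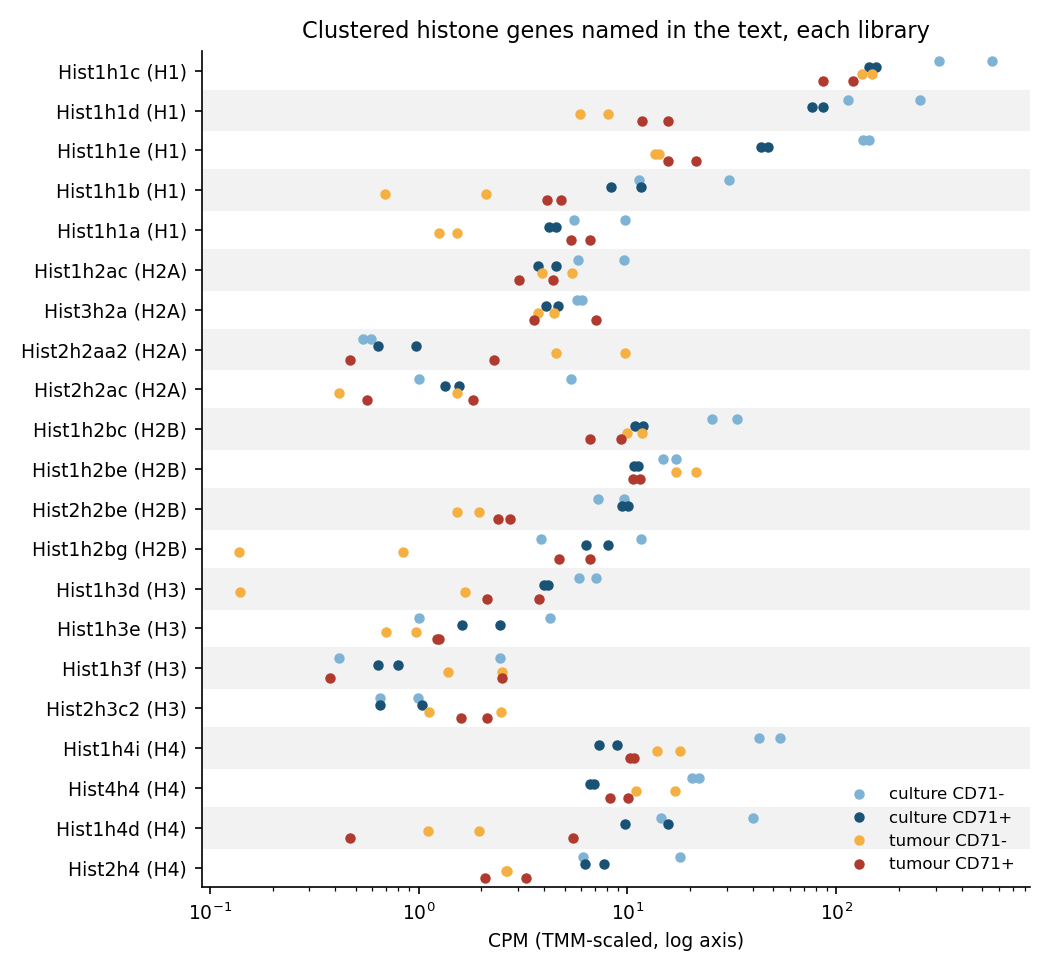
CPM of the 21 clustered histone genes chosen by the naming rule, on a log axis, 1 point per library, coloured by group and ordered by class. Hist1h1c has the highest points, up to 558 CPM in culture CD71-, and the lowest points of Hist1h1b, Hist1h2bg and Hist1h3d are tumour CD71- libraries at 0.693, 0.139 and 0.140 CPM.

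In culture, CD71+ cells held less histone mRNA than CD71- cells, and the falls were in the abundant genes. Of the 35 genes tested, 7 fell and none rose by edgeR's quasi-likelihood test at adjusted p under 0.05. That is 20.0%, against 16.2% of all 15975 genes tested (7.88% higher and 8.36% lower). At an unadjusted p under 0.05, 11 were lower and 0 higher, and DESeq2 called 6 lower and 0 higher. Both CD71+ libraries lay below both CD71- libraries for 14 of the 35 and above them for 1, against 27.5% and 33.3% of all genes. The median log2 fold change of the 35 was -0.68, against 0.03 for all genes. Mitochondrial genes, at 7.09% and 12% of counts in CD71- and 1.45% and 2.17% in CD71+, moved the same way, and their part in the result was not tested. The 7 were 3 linker histone genes, 3 H4 genes and 1 H2B gene.

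Hist1h4i encodes H4, a core histone. Its levels were 42.5 and 54.0 CPM in culture CD71- and 7.32 and 8.92 CPM in culture CD71+. The groups did not overlap, and the log2 fold change was -2.57 ± 0.23 (SE, adjusted p = 1.6e-05). Hist4h4, the H4 gene on chromosome 6, went from 20.4 and 22.1 CPM to 6.95 and 6.60 CPM (log2 fold change -1.65 ± 0.26, adjusted p = 0.00090). Both CD71- libraries were again above both CD71+ libraries.

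Hist1h1e, a linker histone gene, stood at 135 and 143 CPM in culture CD71- and at 46.9 and 43.6 CPM in culture CD71+ (log2 fold change -1.62 ± 0.18, adjusted p = 8.3e-05). Hist1h1c was at 312 and 558 CPM in CD71- and at 156 and 143 CPM in CD71+ (log2 fold change -1.54 ± 0.25, adjusted p = 0.0012). The CD71- values differ between libraries, yet the lower of them lies above both CD71+ values. Hist1h1d went from 114 and 251 CPM to 76.8 and 86.6 CPM (log2 fold change -1.16 ± 0.30, adjusted p = 0.024), and this call needs culture CD71- replicate 2. Without that library the log2 fold change was -0.48 (adjusted p = 0.15), and without culture CD71+ replicate 1 or replicate 2 the adjusted p was 0.20 or 0.12.

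Hist1h2bc, an H2B gene with polyadenylated transcripts, fell from 25.4 and 33.4 CPM to 11.9 and 10.9 CPM (log2 fold change -1.37 ± 0.25, adjusted p = 0.0022). Hist1h4c, an H4 gene named after its values were seen because it completes the 7, had a log2 fold change of -1.14 ± 0.37 (adjusted p = 0.0497) and was lost under most alternatives, DESeq2 and the replicate block among them. Hist2h2be, the other H2B gene known for polyadenylated transcripts, gave 7.22 and 9.61 CPM against 10.1 and 9.47 CPM. Its groups overlapped (log2 fold change 0.22 ± 0.30, adjusted p = 0.66). No H2A or H3 gene passed in culture, where 1 H2A gene and 0 H3 genes had an unadjusted p under 0.05 and DESeq2 called 0 of either.

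How far the falls in culture extend beyond the abundant genes depended on 1 library and on the scaling. Without culture CD71- replicate 2, 6 genes fell and 0 rose, 5 of them among the 7 and the other being Hist1h2ac (log2 fold change -1.20, adjusted p = 0.037). The median of the genes tested was 0.20 against 0.03 for all genes. Scaled on total counts, 6 fell, with a median of -0.38 against 0.34 for all genes. Scaled on the mature neutrophil markers, 2 fell (Hist1h4i and Hist1h1e) and 1 rose (Hist2h2be), with medians of 0.13 and 0.83. The median of the histone genes was thus below that of all genes under each of these scalings, and the share of calls that were higher over all genes was 48.5% with TMM, 42.3% with DESeq2's size factors, 80.9% with total counts and 97.1% with the marker scaling.

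In the tumour, the CD71 sort did not move the histone genes in 1 direction. Of the 35 tested, 4 rose (Hist1h2bg, Hist1h1a, Hist1h3d and Hist1h1b) and 2 fell (Hist2h2aa2 and Hist1h2be). That is 17.1% called, against 43.5% of all genes (26.2% higher and 17.3% lower). The median log2 fold change was 0.29, or 0.04 with the 1 gene that had no counts in a group set at its bound, against 0.13 for all genes. Both CD71+ libraries lay above both CD71- libraries for 10 of the 35 and below them for 8, against 40.1% and 32.4% of all genes. None of the 9 H4 genes passed, where 2 were lower at an unadjusted p under 0.05 and 2 lower by DESeq2. Of the 7 genes that fell in culture none passed here, though some did under other settings. Hist1h1c was at 149 and 132 CPM in tumour CD71- and at 121 and 86.2 CPM in tumour CD71+ (log2 fold change -0.44 ± 0.25, adjusted p = 0.16). It was called lower by DESeq2 (-0.66, adjusted p = 0.033), with DESeq2's size factors (adjusted p = 0.044) and without either culture CD71- library (both 0.040). Hist1h4i and Hist4h4 were called lower by DESeq2 (-0.81 and -0.82, adjusted p = 0.012 and 0.024). Hist1h1d (0.96 ± 0.37, adjusted p = 0.055) was called higher with no filter (adjusted p = 0.00028), in a fit of only the tumour libraries (0.019), with the replicate block (0.039), on total counts (0.0018), on the marker scaling (0.0028) and without either culture CD71- library (0.0033 and 0.0036). Hist1h1e was called higher on total counts (0.97, adjusted p = 0.0011) and on the marker scaling (1.33, adjusted p = 0.00048).

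Hist1h2bg, an H2B gene, had 0.838 and 0.139 CPM in tumour CD71- and 6.64 and 4.71 CPM in tumour CD71+ (log2 fold change 3.52 ± 0.73, adjusted p = 0.0021). Hist1h1a, a linker histone gene tied to dividing cells, had 1.54 and 1.25 CPM and then 5.39 and 6.59 CPM (log2 fold change 2.10 ± 0.44, adjusted p = 0.0020). For both genes every CD71+ value exceeded every CD71- value. Their tumour CD71- values rest on few reads, 6 and 1 for Hist1h2bg and 11 and 9 for Hist1h1a.

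Hist1h1b, another linker histone gene, went from 2.09 and 0.693 CPM to 4.81 and 4.14 CPM (log2 fold change 1.68 ± 0.60, adjusted p = 0.040). Leaving out any 1 of the 4 tumour libraries took the adjusted p to between 0.057 and 0.33. Without tumour CD71- replicate 2 the log2 fold change was 0.98. With DESeq2's size factors it was 1.46 (adjusted p = 0.067). Hist1h3d, an H3 gene, went from 0.140 and 1.66 CPM to 2.12 and 3.76 CPM (log2 fold change 1.70 ± 0.65, adjusted p = 0.049). Its tumour CD71- values rest on 1 and 12 reads. Without tumour CD71- replicate 1 its log2 fold change was 0.67 (adjusted p = 0.40), and without tumour CD71+ replicate 2 it was 1.21 (adjusted p = 0.22). The call was also lost by DESeq2 (adjusted p = 0.068), with DESeq2's size factors (0.084), with the filter at 1 CPM (0.0503), in a fit of only the tumour libraries (0.096), with the replicate block (0.056) and without culture CD71- replicate 1 (0.052) or either culture CD71+ library (0.071 and 0.070).

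Hist2h2aa2, an H2A gene on chromosome 3, fell from 9.77 and 4.57 CPM to 2.31 and 0.471 CPM (log2 fold change -2.37 ± 0.63, adjusted p = 0.0085). On the marker scaling its log2 fold change was -1.5 (adjusted p = 0.068). Without tumour CD71- replicate 1 it was -1.87 (adjusted p = 0.10). Hist1h2be went from 17 and 21.3 CPM to 11.4 and 10.6 CPM (log2 fold change -0.80 ± 0.24, adjusted p = 0.017). Its adjusted p was 0.082 when tumour CD71- replicate 2 was left out and 0.069 when tumour CD71+ replicate 2 was, and on total counts its log2 fold change was -0.24. Hist1h2be shares exon sequence with Hist1h1e, which did not pass (log2 fold change 0.41 ± 0.20, adjusted p = 0.11).

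The split of the tumour calls moved with the scaling. With DESeq2's size factors 2 rose and 5 fell, with total counts 7 rose and 1 fell, and with the mature neutrophil markers 10 rose and 0 fell. At the same time the median of all genes moved from 0.13 to -0.07, 0.69 and 1.05, and the share of all calls that were higher from 60.2% to 47.3%, 93.3% and 99.7%. The median of the histone genes was 0.07, 0.84 and 1.16 in the same order. Only 3 calls were left when tumour CD71- replicate 1, or in its place tumour CD71+ replicate 2, was left out.

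The CD71 effect differed between tumour and culture for the linker histone genes. The difference, tumour minus culture, was positive and passed for the 5 H1 genes tested, for Hist1h2bg and for Hist1h4i. The H1 call of Hist1h1c was lost under most alternatives. These 7 of 35 are 20.0%, against 15.5% of all genes (10.8% higher and 4.71% lower). The median difference was 0.92, against 0.18 for all genes. None was lower, where 1 was at an unadjusted p under 0.05, and DESeq2 called 6 higher and 1 lower, with 4 of the 5 H1 genes and Hist2h2aa2 as the lower one. The 2 CD71 effects come from separate libraries, and their values for each H1 gene follow.

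For Hist1h1e the log2 CD71 effect was -1.62 in culture and 0.41 in the tumour, a difference of 2.03 ± 0.27 (adjusted p = 0.00060). For Hist1h1a it was -0.80 and 2.10, a difference of 2.89 ± 0.56 (adjusted p = 0.0046). For Hist1h4i it was -2.57 and -0.59, a difference of 1.98 ± 0.33 (adjusted p = 0.0021). These 3 passed under every alternative tried.

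For Hist1h2bg the effects were -0.08 and 3.52, a difference of 3.60 ± 0.89 (adjusted p = 0.017). It did not pass without culture CD71+ replicate 1 (adjusted p = 0.060) or without tumour CD71- replicate 2 (2.73, adjusted p = 0.13). For Hist1h1d the effects were -1.16 and 0.96, a difference of 2.12 ± 0.48 (adjusted p = 0.014). For Hist1h1b they were -1.07 and 1.68, a difference of 2.75 ± 0.73 (adjusted p = 0.026). Hist1h1c had the smallest difference of the H1 genes, 1.10 ± 0.35 (adjusted p = 0.048), and without culture CD71- replicate 2 it was 0.61 (adjusted p = 0.13). It also did not pass by DESeq2 (adjusted p = 0.071), with DESeq2's size factors (0.087), on the marker scaling (0.083), with the replicate block (0.076), or without either culture CD71+ library (0.11 and 0.16), either tumour CD71- library (0.17 and 0.24) or tumour CD71+ replicate 1 (0.16). Hist1h1b and Hist1h1d did not pass without tumour CD71- replicate 2 (2.06 and 1.82, adjusted p = 0.17 and 0.10), without tumour CD71- replicate 1 (3.60 and 2.22, adjusted p = 0.052 and 0.056) or without culture CD71+ replicate 1 (2.51 and 2.01, adjusted p = 0.086 and 0.059). Hist1h1b did not pass without tumour CD71+ replicate 1 or replicate 2 either (adjusted p = 0.068 and 0.054). Of the 7 calls, 3 remained without culture CD71+ replicate 1, 4 without tumour CD71- replicate 1 and 3 without tumour CD71- replicate 2, where Hist1h3d was called in addition (4.90, adjusted p = 0.025). Macrophage and microglia markers, whose rise with CD71 was larger in the tumour for 7 of 15 and 5 of 9 and smaller for 1 and 0, moved the same way, as did 1 of 4 lymphocyte markers and 1 of 2 erythroid markers tested. Mature neutrophil markers split 3 higher and 3 lower of 22, and endothelial and stromal markers 1 and 1 of 7. No early neutrophil, dendritic, glioma and neural, or eosinophil, basophil and mast cell marker passed. The part of any of these cells in the result was not tested.

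**Figure D3:**
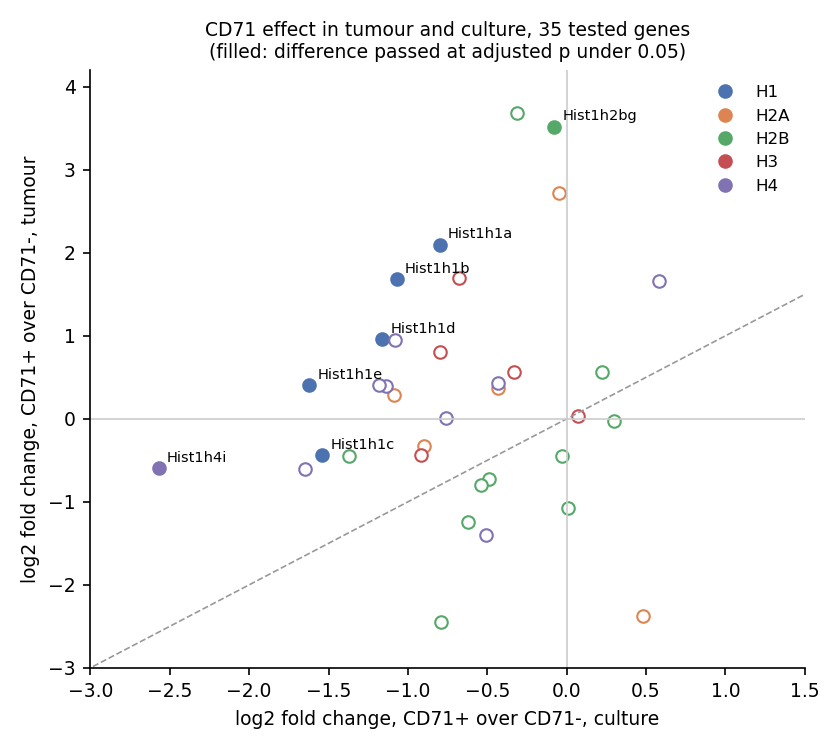
Log2 fold change of CD71+ over CD71- in culture (x axis) and in the tumour (y axis) for the 35 tested genes, coloured by class, with the dashed line where both are equal. Filled points are the 7 genes whose difference passed, and all 7 lie above the line, from Hist1h1c at 1.10 to Hist1h2bg at 3.60.

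Among CD71- cells, the tumour held far less linker histone mRNA than the culture. Of the 35 genes tested, 18 fell and 1 rose, or 54.3%, against 67.1% of all genes (30.3% higher and 36.8% lower). The median log2 fold change was -1.65, against -0.28 for all genes. All 5 H1 genes tested fell, as did 7 of 9 H4 genes and 5 of 11 H2B genes. In H3, 1 of 5 fell, and in H2A 1 of 5 rose and 0 fell, where 0 H2A genes were lower at an unadjusted p under 0.05 or by DESeq2, while 4 of the 5 fell on total counts. Both tumour libraries lay below both culture libraries for 24 of the 35 and above them for 2, against 45.9% and 36.8% of all genes. With DESeq2's size factors, which moved the median of all genes up to -0.04, 17 fell and 1 rose. On total counts and on the marker scaling, which moved it down to -1.21 and -1.71, 27 and 30 fell and 1 rose. Leaving out either tumour CD71- library left 13 calls. Markers of other cells also differed in this comparison. Of 5 eosinophil, basophil and mast cell markers tested 4 were lower and 1 higher in the tumour (sums of 131 to 137 CPM in culture and 48.8 to 49.7 CPM in the tumour, with 6 of 8 listed at 0 there). Of 15 macrophage markers 9 were higher and 3 lower, of 9 microglia markers 6 and 1, and of 7 glioma and neural markers 5 and 0 (99.0 to 101 and 134 to 142 CPM). Their part in the result was not tested.

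Hist1h1d had the largest fall in H1, from 114 and 251 CPM in culture CD71- to 8.10 and 5.96 CPM in tumour CD71- (log2 fold change -4.70 ± 0.38, adjusted p = 7.1e-07). Hist1h1e went from 135 and 143 CPM to 14.2 and 13.6 CPM (log2 fold change -3.32 ± 0.20, adjusted p = 7.0e-09). Hist1h1b went from 11.4 and 30.6 CPM to 2.09 and 0.693 CPM (log2 fold change -3.90 ± 0.56, adjusted p = 5.7e-05). In each the tumour values were all below the culture values. Hist1h1a, at 5.57 and 9.79 CPM in culture, had a log2 fold change of -2.45 ± 0.43 (adjusted p = 0.00020). Hist1h1c fell least in this class (log2 fold change -1.63 ± 0.25, adjusted p = 7.7e-05), and it alone made up 52.4% and 54.1% of the histone counts in tumour CD71-, against 40.9% and 43.9% in culture CD71-.

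Among the core histones, Hist1h4d (H4) went from 14.4 and 39.8 CPM to 1.95 and 1.11 CPM (log2 fold change -4.13 ± 1.01, adjusted p = 0.0085), and without tumour CD71- replicate 2 its adjusted p was 0.065. Hist2h4, an H4 gene on chromosome 3, went from 6.10 and 17.9 CPM to 2.65 and 2.63 CPM (log2 fold change -2.16 ± 0.49, adjusted p = 0.0015). Hist1h4i was at 17.9 and 13.9 CPM in the tumour (log2 fold change -1.60 ± 0.23, adjusted p = 3.8e-05). Hist4h4, whose model holds the same H4 form of the stem-loop and runs 2445 bases past it, missed the threshold at 16.9 and 10.9 CPM (log2 fold change -0.61 ± 0.27, adjusted p = 0.056).

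Of the H2B genes, Hist1h2bg went from 3.85 and 11.6 CPM to 0.838 and 0.139 CPM (log2 fold change -3.94 ± 0.71, adjusted p = 0.00030). Hist2h2be fell to 1.54 and 1.94 CPM (log2 fold change -2.26 ± 0.37, adjusted p = 0.00010) and Hist1h2bc to 11.7 and 9.98 CPM (log2 fold change -1.44 ± 0.26, adjusted p = 0.00026). Hist1h3d, the H3 gene that fell, had a log2 fold change of -2.84 ± 0.61 (adjusted p = 0.0010). The gene that rose was Hist2h2aa2, from 0.592 and 0.544 CPM to 9.77 and 4.57 CPM (log2 fold change 3.63 ± 0.68, adjusted p = 0.00034). It has an annotated copy without counts in any library, Hist2h2aa1, and overlaps 2 genes on the other strand, so its reads may not be its own. Hist1h2be reversed with the scaling, from 0.27 (adjusted p = 0.33) to -0.66 on total counts and -1.17 on the marker scaling.

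**Figure D4:**
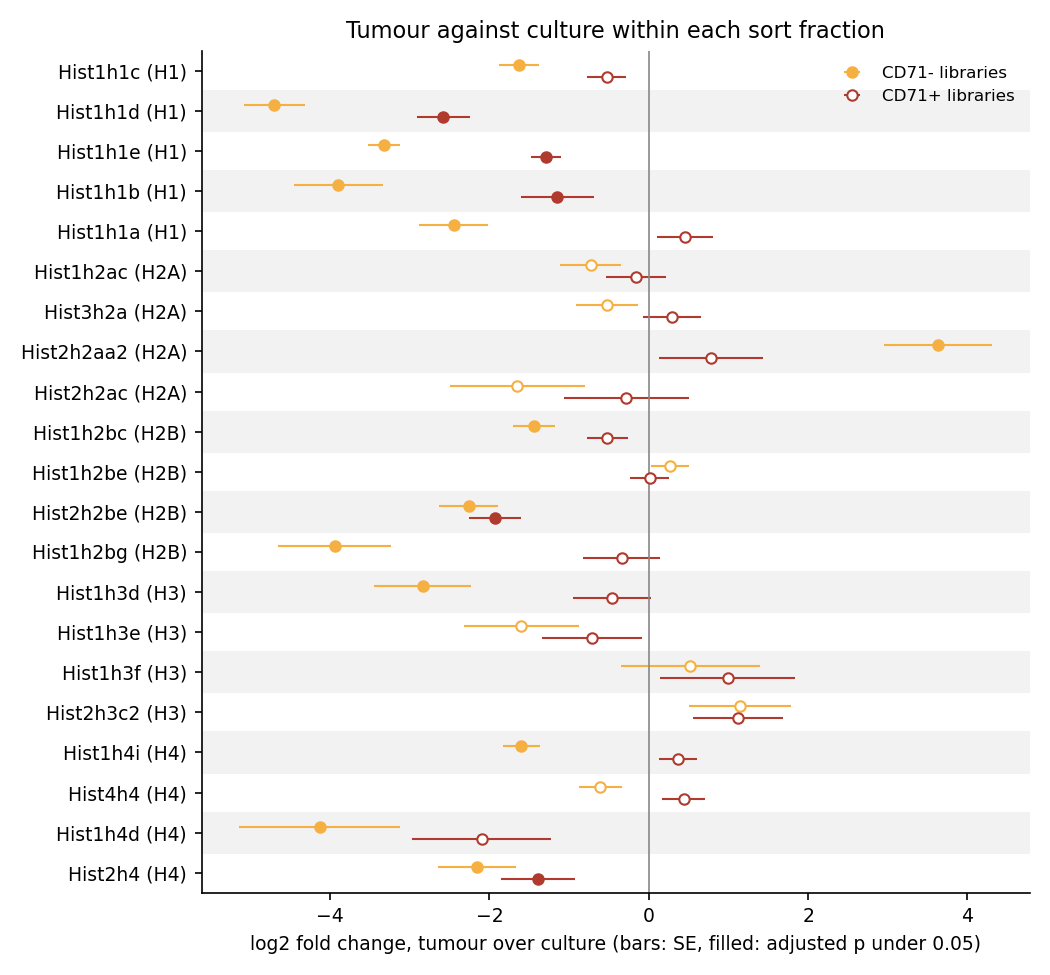
Log2 fold change of tumour over culture with its SE for the 21 named genes, in CD71- libraries and in CD71+ libraries. Filled points passed. The H1 points of the CD71- libraries run from -1.63 to -4.70, each to the left of the same gene's CD71+ point.

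Among CD71+ cells the fall from culture to tumour was smaller for H1. The test of the difference described for the CD71 effects is also the test of this. It passed for the 5 H1 genes, for Hist1h1e and Hist1h1a under every alternative, and for Hist1h1c, Hist1h1b and Hist1h1d with the losses given there. Of the 35 tested, 8 fell and none rose, or 22.9%, against 57.9% of all genes (30.3% higher and 27.6% lower). At an unadjusted p under 0.05, 11 were lower and 0 higher, and DESeq2 called 6 lower and 0 higher. Both tumour libraries lay below both culture libraries for 20 and above them for 4, against 43.3% and 39.2% of all genes. The median was -0.53, against -0.08 for all genes. The calls were Hist1h1d, Hist1h1e and Hist1h1b in H1, Hist2h2be and 1 other gene in H2B, and Hist2h4 and 2 others in H4. Scaled on total counts 18 fell, with a median of all genes of -0.76, and without culture CD71+ replicate 2 only 3 passed.

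Hist1h1d went from 76.8 and 86.6 CPM in culture CD71+ to 11.7 and 15.6 CPM in tumour CD71+ (log2 fold change -2.58 ± 0.33, adjusted p = 5.0e-05). Hist1h1e went from 46.9 and 43.6 CPM to 21.4 and 15.7 CPM (log2 fold change -1.29 ± 0.19, adjusted p = 5.0e-05). Hist2h2be went from 10.1 and 9.47 CPM to 2.40 and 2.73 CPM (log2 fold change -1.93 ± 0.33, adjusted p = 0.00020). None of these groups overlapped. Hist1h1b (log2 fold change -1.15 ± 0.46, adjusted p = 0.046) did not pass without culture CD71+ replicate 2 (adjusted p = 0.18), tumour CD71+ replicate 1 (0.11) or replicate 2 (0.14), or tumour CD71- replicate 1 (0.055) or replicate 2 (0.056). Hist2h4 went from 6.25 and 7.74 CPM to 3.27 and 2.07 CPM (log2 fold change -1.39 ± 0.46, adjusted p = 0.020), and its adjusted p was 0.081 without culture CD71+ replicate 2 and 0.10 without tumour CD71+ replicate 2. The call of Hist1h1b was also lost with DESeq2's size factors (adjusted p = 0.061), with the filter at 1 CPM (0.058) and with the replicate block (0.058). Hist1h1c had a log2 fold change of -0.53 ± 0.24 (adjusted p = 0.079) and was called lower under some other settings. These were no filter (-0.65, adjusted p = 0.002) and a fit of only the CD71+ libraries (-0.52, adjusted p = 0.023). Total counts (-1.21, adjusted p = 0.00023) and the marker scaling (-1.83, adjusted p = 5.1e-05) were others. Without either culture CD71- library its log2 fold change was -0.57, and without tumour CD71+ replicate 1 it was -0.81. Hist1h1a had a log2 fold change of 0.45 ± 0.35 (adjusted p = 0.29). Markers of other cells differed here too. Of 15 macrophage markers 12 were higher in tumour CD71+ and 0 lower, of 9 microglia markers 9 and 0, and of 7 glioma and neural markers 6 and 0. Endothelial and stromal markers split 5 and 2 of 7, lymphocyte markers 2 and 0 of 4, and erythroid markers 2 and 0 of 2. Dendritic markers split 2 and 2 of 6, and eosinophil, basophil and mast cell markers 1 and 3 of 5. Their part in the result was not tested.

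The remaining H2A and H3 genes of the naming rule passed in none of the 5 comparisons of the main fit. Under other settings some were called, as in tumour CD71- over culture CD71-. There Hist2h2ac (-1.74, adjusted p = 0.019) and Hist1h3e (-1.69, adjusted p = 0.028) were lower with no filter. On total counts, which moved the median of all genes to -1.21, so were Hist1h2ac (-1.67, adjusted p = 0.0012) and Hist3h2a (-1.45, adjusted p = 0.0047). Hist1h2ac, an H2A gene that shares exon sequence with another gene, ran from 3.01 to 9.59 CPM over the 8 libraries, with its highest values, 9.59 and 5.80 CPM, in culture CD71-. Hist3h2a, the H2A gene on chromosome 11, ran from 3.56 to 7.06 CPM, and both extremes fell in tumour CD71+. Hist2h2ac, an H2A gene on chromosome 3, had 1.01 and 5.35 CPM in culture CD71-, a spread within the group that covers most of its other values. The H3 genes Hist1h3e, Hist1h3f and Hist2h3c2 stayed between 0.376 and 4.26 CPM in every library, and only 26.6% of the 50-base stretches of Hist1h3e and 36.5% of those of Hist2h3c2 were found nowhere else.

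Genes with long annotated ends held nearly all of the histone counts. The 22 genes whose models run at least 300 bases past the stop codon, 19 of them tested, held 87.6% to 95.5% of the histone counts of a library. This split was chosen after the values were seen. The longer models include Hist1h1c, Hist1h1d and Hist1h1e, so it also separates genes by level. Genes with few counts are less likely to pass. In culture the 7 falls were all among these 19, with 0 among the 16 tested genes of shorter models, where 2 were lower at an unadjusted p under 0.05 and DESeq2 called 0. The medians were -0.92 and -0.46. Of all genes, 8.36% were called lower there. In the tumour 1 of 19 rose and 1 fell, against 3 and 1 of 16. Of all genes, 26.2% rose there and 17.3% fell. From culture to tumour the genes of shorter models had the lower medians. In CD71- cells 11 of 19 fell and 0 rose, against 7 and 1 of 16, with medians of -1.60 and -2.39. Of all genes, 36.8% fell there and 30.3% rose. In CD71+ cells 4 of 19 and 4 of 16 fell and 0 rose in either, with medians of -0.52 and -1.44. Of all genes, 27.6% fell there and 30.3% rose.

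Genes of the cell cycle did not follow the clustered histone genes in culture. Of 18 genes of G2 and mitosis, 11 rose in culture CD71+ over CD71- and 0 fell, against 7.88% and 8.36% of all genes. The median of the 18 was 1.10, and 0 of them were lower at an unadjusted p under 0.05 or by DESeq2. Their summed level was 114 and 151 CPM in CD71- and 269 and 282 CPM in CD71+. Cenpf, a kinetochore protein, went from 1.07 and 2.45 CPM to 18.1 and 20.5 CPM (log2 fold change 3.51 ± 0.40, adjusted p = 8.9e-05). Cenpe, a kinetochore motor, had a log2 fold change of 2.50 ± 0.47 (adjusted p = 0.0030).

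Of 27 genes of S phase, 2 rose in culture and 0 fell, against 7.88% and 8.36% of all genes, with a median of 0.44. At an unadjusted p under 0.05, 6 were higher and 0 lower, and DESeq2 called 2 higher. The 2 were Pole, the catalytic subunit of a replicative polymerase (log2 fold change 3.40 ± 0.46, adjusted p = 0.00033), and Uhrf1, which maintains DNA methylation at replication forks (log2 fold change 1.97 ± 0.37, adjusted p = 0.0029). Their summed level was 191 and 226 CPM in CD71- and 258 and 258 CPM in CD71+. So in the same libraries the summed S phase level was higher in CD71+ and the summed histone level lower. Neither list held a fall in culture under any of the 4 scalings.

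In the tumour, 14 of the 18 genes of G2 and mitosis and 14 of the 27 of S phase rose in CD71+, with medians of 1.96 and 0.94, and 0 and 1 fell. Of all genes, 26.2% rose there and 17.3% fell. In these lists DESeq2 called 13 and 10 higher and 0 and 1 lower, and at an unadjusted p under 0.05 no gene of G2 and mitosis was lower. Cenpf had a log2 fold change of 4.19 ± 0.50 (adjusted p = 4.3e-05) and Kif11, a spindle motor, one of 3.15 ± 0.50 (adjusted p = 0.00035). Pole had one of 4.07 ± 0.50 (adjusted p = 5.4e-05) and Mcm3, part of the replicative helicase, one of 3.18 ± 0.42 (adjusted p = 8.3e-05). Mcm10, a replication initiation factor, fell from 134 and 128 CPM to 60.9 and 72.2 CPM (log2 fold change -0.98 ± 0.21, adjusted p = 0.0023). No gene of the list fell there on total counts. In culture Mcm10 stood at 2.71 to 5.15 CPM. From culture to tumour the S phase list was mixed, with 6 higher and 8 lower in CD71- cells and 12 higher and 3 lower in CD71+ cells, and on total counts 3 and 14, and 2 and 6. With TMM factors, 30.3% of all genes were higher and 36.8% lower in CD71- cells, and 30.3% and 27.6% in CD71+ cells.

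**Figure D5:**
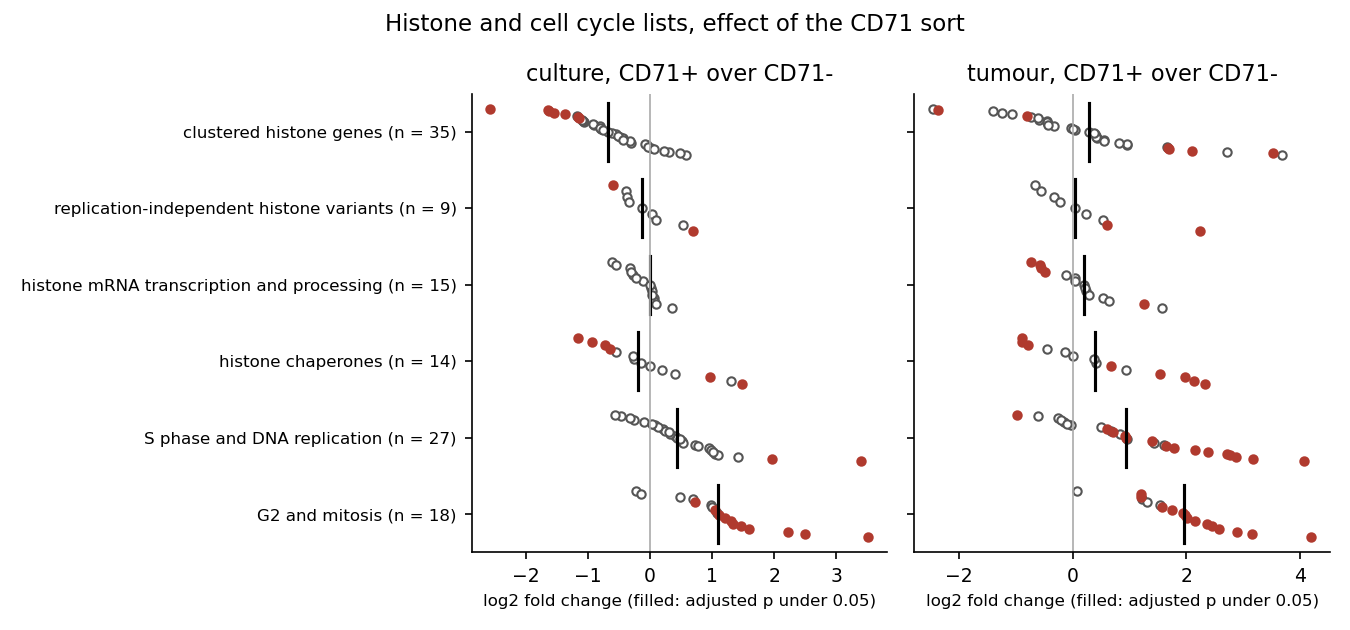
Log2 fold change of CD71+ over CD71- in culture and in the tumour for the tested genes of 6 lists, with 1 point per gene, filled where adjusted p was under 0.05, and a bar at the median. In culture the median is -0.68 for the clustered histone genes and 1.10 for G2 and mitosis, and in the tumour it is 0.29 and 1.96.

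Replication-independent variants are histones encoded outside the clusters, made through the cell cycle and polyadenylated. Of 11 listed, 9 were tested. H3f3b, a gene of the variant H3.3, was at 599 and 578 CPM in culture CD71-, 417 and 363 in culture CD71+, 1754 and 1654 in tumour CD71- and 1374 and 1348 in tumour CD71+. It rose from culture to tumour in CD71- cells (log2 fold change 1.53 ± 0.16, adjusted p = 2.0e-06) and in CD71+ cells (1.80 ± 0.17, adjusted p = 5.8e-07). This was the reverse of the 5 H1 genes tested in CD71- cells and of 3 of the 5 in CD71+ cells. H3f3a, the other H3.3 gene, also rose (1.17 ± 0.23 and 1.32 ± 0.23, adjusted p = 0.00043 and 0.00022).

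H1f0, a linker histone variant of cells that have stopped dividing, is the variant nearest in kind to the clustered H1 genes. It had 111 and 133 CPM in culture CD71-, 107 and 86.3 in culture CD71+, 5.72 and 2.22 in tumour CD71- and 16.4 and 21.1 in tumour CD71+. From culture to tumour it fell in CD71- cells (log2 fold change -4.94 ± 0.33, adjusted p = 2.7e-08) and in CD71+ cells (-2.36 ± 0.27, adjusted p = 6.8e-06). Within the tumour it rose in CD71+ (2.24 ± 0.32, adjusted p = 0.00022), and the difference of its CD71 effects was 2.58 ± 0.41 (adjusted p = 0.0018). H2afv, a gene of the H2A.Z family, fell from culture to tumour (-1.72 ± 0.36 and -1.54 ± 0.34, adjusted p = 0.00079 and 0.0015). In all, 4 of the 9 variants tested rose and 3 fell in each of these comparisons. The shares of all genes were 30.3% higher and 36.8% lower in CD71- cells, and 30.3% and 27.6% in CD71+ cells. On total counts 1 variant rose and 3 fell in CD71- cells, and 2 rose and 4 fell in CD71+ cells. On the marker scaling 0 rose in either, and 5 and 6 fell.

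Factors that transcribe or process histone mRNA were mostly lower in the tumour. Of the 15 tested, 3 rose and 10 fell among CD71- cells, against 30.3% and 36.8% of all genes. Among CD71+ cells 2 of the 15 rose and 8 fell, against 30.3% and 27.6% of all genes. The medians of the factors were -1.01 and -0.68 in the same order. Slbp, the stem-loop-binding protein itself, went the other way. It had 30.1 and 25.6 CPM in culture CD71-, 27.7 and 24.1 in culture CD71+, 73.2 and 69.7 in tumour CD71- and 45.9 and 56.0 in tumour CD71+. The log2 fold change from culture to tumour was 1.36 ± 0.19 in CD71- cells (adjusted p = 2.3e-05) and 0.98 ± 0.18 in CD71+ cells (adjusted p = 0.00046). On total counts none of the 15 rose and 12 and 13 fell. Coil, the marker protein of Cajal bodies, had the largest fall in CD71- cells (-3.0 ± 0.55, adjusted p = 0.00029), at 3.26 and 4.71 CPM in culture and 0.419 and 0.554 CPM in the tumour. These tumour values lie at or near the 0.419 and 0.416 CPM that 3 counts make in the same libraries. Zfp473, a zinc finger partner of the U7 particle that cuts histone mRNA, fell from 64.5 and 49.6 CPM to 9.91 and 6.10 CPM (-2.83 ± 0.26, adjusted p = 3.7e-07). In CD71+ cells its log2 fold change was -2.96 ± 0.26 (adjusted p = 3.7e-07).

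For the CD71 sort in culture, 0 of these 15 factors passed, against 16.2% of all genes. At an unadjusted p under 0.05, 0 factors were higher and 2 lower, and DESeq2 called 0. On the marker scaling 6 rose. In the tumour, Cpsf2, a subunit of the cleavage complex, rose in CD71+ (1.26 ± 0.22, adjusted p = 0.00062) and 4 factors fell, Zfp473 most (-0.74 ± 0.28, adjusted p = 0.047). Slbp was among them (-0.49 ± 0.18, adjusted p = 0.046). Of all genes, 26.2% were higher and 17.3% lower in that comparison. With total counts 8 factors rose there and 0 fell.

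Histone chaperones, which carry histones to DNA, changed gene by gene. In the tumour 5 of 14 rose in CD71+ and 3 fell, against 26.2% and 17.3% of all genes. In culture 2 rose and 4 fell, against 7.88% and 8.36% of all genes. Chaf1a, a subunit of the replication-coupled assembly factor, rose in both (2.14 ± 0.44 and 1.48 ± 0.40, adjusted p = 0.0018 and 0.021). Chaf1b, its partner subunit, fell in the tumour (-0.89 ± 0.23, adjusted p = 0.0072) and rose in culture (0.96 ± 0.26, adjusted p = 0.023). The difference for Chaf1b was -1.85 ± 0.35 (adjusted p = 0.0040). Its levels were 38.7 and 40.3 CPM in tumour CD71- and 21.6 and 20.9 in tumour CD71+, above the 2.37 to 6.01 CPM of the culture libraries. From culture to tumour, 4 chaperones rose and 8 fell in CD71- cells, against 30.3% and 36.8% of all genes. In CD71+ cells 4 rose and 5 fell, against 30.3% and 27.6% of all genes. On the marker scaling no chaperone fell with CD71 in either setting, where 10 rose in the tumour and 5 in culture.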

How the data were processed

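The deposited values were whole-number read counts per gene for 8 libraries, not normalized. The submitters' processing notes list STAR, featureCounts, cutadapt, FastQC and DESeq2, and the build mm10. Strand setting, read length, tool versions and the handling of multiply matching reads: not given in the sources used here. Per the labels' protocols, libraries were made with a stranded total RNA kit after ribosomal RNA removal. Gene models came from GENCODE M21, matched on gene ID, and promoters from RefSeq GRCm38.p6.

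Tests used edgeR 4.0.16 (R 4.3.3) on the counts: filterByExpr with the 4 groups (15975 genes), TMM factors, 4 group means over all 8 libraries, robust quasi-likelihood tests (4 residual degrees of freedom) and Benjamini-Hochberg adjustment over all genes tested, with a threshold of 0.05. There were 5 comparisons. Alternatives were DESeq2 1.42.0, other scalings and filters, a replicate block, only the libraries compared, and each library left out. The test script was checked on simulated counts.

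The members, the lists and the naming rule were chosen with earlier results of these data known. The rule named the 4 members of each class with the highest mean CPM, up to 4 rises and 4 falls per comparison with a mean of at least 1 CPM, Hist1h1c, Hist1h2bc and Hist2h2be, and up to 2 rises and 2 falls per other list. The planned search for genes with the most similar pattern was not run, because the libraries fall into separate groups. Of 16 processing factors 15 were matched by symbol. Replicate numbers showed no pairing (correlations of replicate differences between -0.21 and 0.16). No 2 libraries of a group agreed within counting noise (chi-square per degree of freedom 12.6 to 69.2). Depth was 9598959 to 22615813 counts per library.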

Additional observations from a re-analysis of the deposited data

Results flagged for a closer look

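The test of the difference between the tumour's and the culture's CD71 effect picked out 7 clustered histone genes. The log2 differences, tumour minus culture, were 3.60 for Hist1h2bg, 2.89 for Hist1h1a, 2.75 for Hist1h1b, 2.12 for Hist1h1d, 2.03 for Hist1h1e, 1.98 for Hist1h4i and 1.10 for Hist1h1c. The adjusted p-values were 0.017, 0.0046, 0.026, 0.014, 0.00060, 0.0021 and 0.048 by edgeR's quasi-likelihood test. Of these genes 5 are linker histones, and in 4 of the 5 the estimate was below 0 in culture and above 0 in the tumour.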

How the results depend on the processing

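Of 1659 values for the 21 named genes over 16 alternatives, 1512 kept direction and side of the threshold, 60 lost their call, 79 gained one and 8 reversed. The counts of calls moved as follows, from 6 for CD71 in the tumour, 7 for CD71 in culture, 19 for tumour against culture in CD71- cells, 8 in CD71+ cells and 7 for the difference. Scaling on total counts gave 18 in CD71+ cells and 11 for the difference. Scaling on mature neutrophil markers gave 10, 3, 31 and 27 for the first 4. Requiring a mean of at least 1 CPM gave 5 in CD71+ cells, where fewer genes were tested. Leaving out 1 library gave 3 to 9, 5 to 10, 13 to 23, 3 to 10 and 3 to 9. A group left with 1 library was assumed to vary like the others. The reversals were Hist1h2be, to -0.66 and -1.17 (CD71- cells) and -0.67 and -1.30 (CD71+ cells) on total counts and marker scaling and to 0.15 for CD71 in the tumour on marker scaling, and on marker scaling in CD71+ cells Hist3h2a to -1.03, Hist1h4i to -0.94 and Hist4h4 to -0.87. Here the scaling itself moved the median of all genes, to -1.39 in CD71+ cells. The replicate block gave 6, 6, 18, 6 and 6 calls. Its numbers name samples only, and it took the difference for Hist1h1c to an adjusted p of 0.076. The fit on only the libraries compared was not run for the difference, which needs all 8. The 32 genes left out had too few counts for the filter, and what kept them low was not tested.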
